A study of Mus musculus with 30 samples.

Results

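Wild type (WT) skin 6 days after the last application of TPA was compared with WT control skin (day 0) on 3 arrays each, 6 of the 30 arrays of the series, across every gene measured. The members were the arrays whose labels give the wild type genotype and day 6 or day 0. All mice were 129–C57BL/6 females of 8 to 12 weeks, and the tissue was the whole shaved back skin. The treated mice had received 3 applications of 50 μM TPA, 24 h apart, whereas the day 0 mice had received the acetone solvent and are titled as untreated. The remaining arrays hold days 1, 2 and 4 of WT mice and all 5 days of mice that lack D6 (Ccbp2, now Ackr2), the atypical receptor that removes inflammatory CC chemokines. Each array stands for 1 mouse, and all days of the time course were taken from different mice.

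TPA (12-O-tetradecanoylphorbol-13-acetate) is a phorbol ester that activates protein kinase C and, through AP-1 factors, genes of keratinocytes. A single course on mouse skin gives keratinocyte proliferation, thickened epidermis and a neutrophil-rich infiltrate, after which the tissue returns towards its resting state. Mouse back skin also passes through the hair cycle, in which resting follicles (telogen) start to build a new hair (anagen) with its inner root sheath, its shaft keratins and active pigment cells. The comparison of day 6 with day 0 therefore asks which genes still stood apart from control skin late in the response.

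Of 17772 genes tested, 1.17% (208 genes) were called higher at day 6 and 0.647% (115 genes) were called lower, where called means a difference of more than 3-fold and a limma adjusted p under 0.05. The count of lower genes depended on 1 array, since it was 63 without WT day 6 replicate 2, and the count of higher genes was then 166. Of the 323 called genes, 321 had no overlap between the day 6 and day 0 arrays. Absence of overlap in a called gene below is therefore a description and adds little to the call. By the adjusted p alone (under 0.05), 12.1% of genes were higher and 11.7% lower. The median difference over all genes was 0.01 on the log2 scale, which is used for every level and difference below. The array medians ran from 5.64 to 5.80 and the median SD between the 3 arrays was 0.17 at day 6 and 0.15 at day 0. In skin as a whole, fewer cells of a type and less RNA per cell cannot be told apart.

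The highest rises at day 6 were those of genes of the growing hair follicle, and these were also high at day 1 but not at days 2 and 4. Averaged over the 24 hair shaft and root sheath keratins and related genes tested, the level was 4.80 to 4.97 on the WT day 0 arrays, 6.26 to 8.35 at day 1, 4.81 to 4.96 at day 2, 5.03 to 5.21 at day 4 and 7.74 to 9.05 at day 6. In D6-deficient mice the same average was 4.78 to 4.94 at day 0, 7.85 to 8.54 at day 1, 4.83 to 4.92 at day 2, 5.13 to 5.20 at day 4 and 7.84 to 11.49 at day 6. Of the 17 called hair keratin genes, 16 were higher on all 3 day 6 arrays than on all 9 WT arrays of days 0, 2 and 4. The day 0 part of this is largely fixed by the call, since 206 of the 208 genes called higher did not overlap with day 0. The stage of hair growth and the day after TPA cannot be told apart in these groups, and its part in the other differences at day 6 was not tested. Of all 208 genes called higher, 63 were higher on every day 6 array than on every WT array of days 2 and 4. These counts are of called genes only, and the share over all tested genes was not counted.

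**Figure D1:**
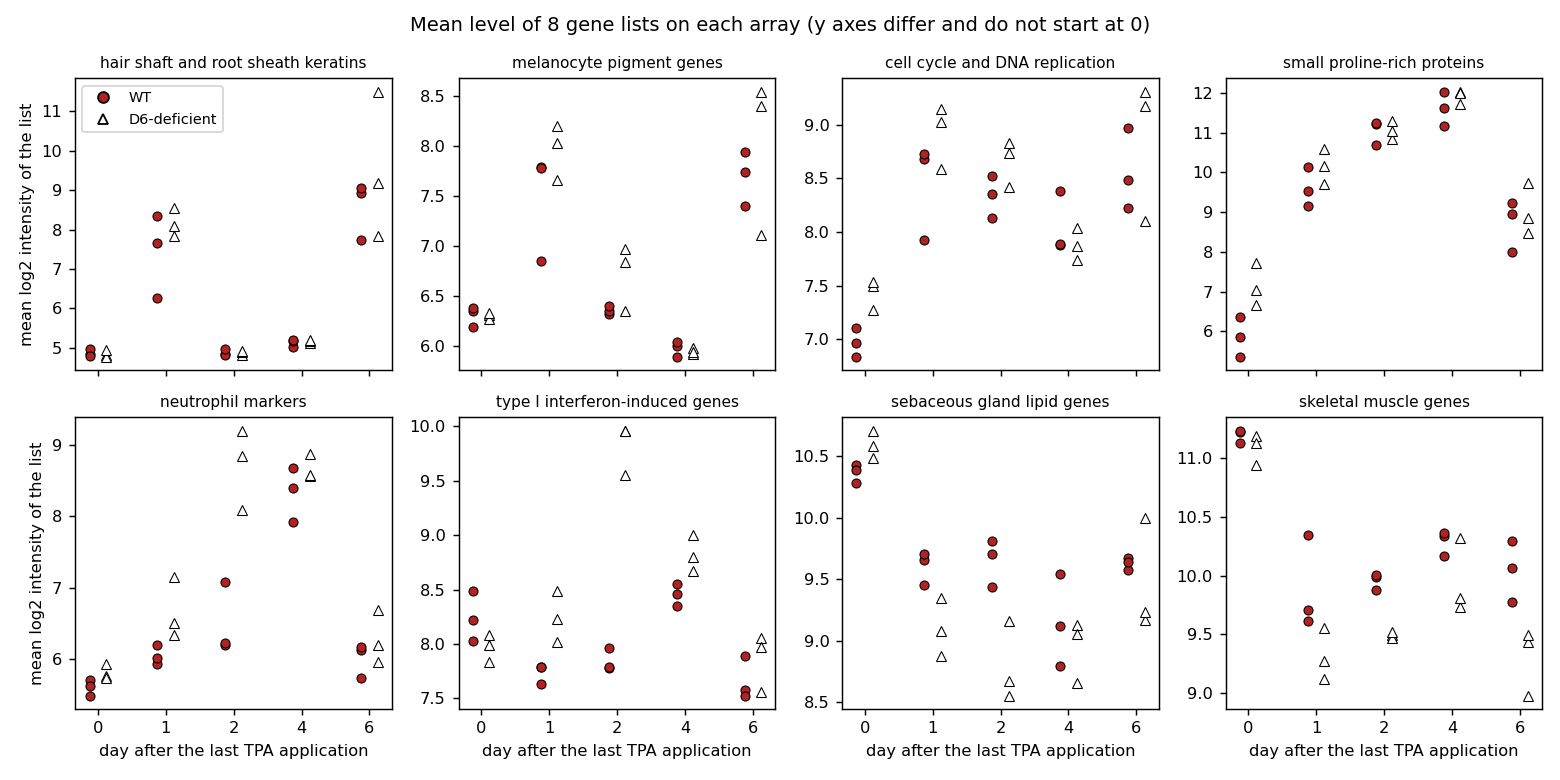
Mean log2 intensity of the tested genes of 8 lists (y axis, 1 scale per panel) on each array against the day after the last TPA application (x axis, days in order but not to scale). Red circles are WT arrays and open triangles D6-deficient arrays, 3 per group. Hair keratins were at 7.74 to 9.05 on the WT day 6 arrays and at 4.80 to 4.97 at day 0, whereas skeletal muscle genes were at 9.77 to 10.30 and 11.13 to 11.24.

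Promoter sequences of 3 genes, each from a different gene list, show letters found near the starts of genes in these lists. Each window is 300 bases of RefSeq (GRCm38.p6), from 250 bases before the start of the gene to 50 after, written 5′ to 3′ on the gene's strand. Krt25, a keratin of the inner root sheath and the gene with the highest rise, is at chr11:99322902-99323201 (minus strand), with the TATA box (TATAAA) in capitals, 30 bases before the start.
Krt25: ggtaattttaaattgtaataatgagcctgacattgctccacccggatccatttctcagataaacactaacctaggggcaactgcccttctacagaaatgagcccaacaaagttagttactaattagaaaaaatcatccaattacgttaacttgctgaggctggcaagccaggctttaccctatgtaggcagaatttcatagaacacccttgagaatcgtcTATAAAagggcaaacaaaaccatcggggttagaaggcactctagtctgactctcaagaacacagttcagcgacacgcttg
Sprr2d, a small proline-rich protein of the cornified envelope, is at chr3:92338890-92339189 (plus strand), with the TPA response element, the AP-1 motif TGANTCA, in capitals, 193 bases before the start.
Sprr2d: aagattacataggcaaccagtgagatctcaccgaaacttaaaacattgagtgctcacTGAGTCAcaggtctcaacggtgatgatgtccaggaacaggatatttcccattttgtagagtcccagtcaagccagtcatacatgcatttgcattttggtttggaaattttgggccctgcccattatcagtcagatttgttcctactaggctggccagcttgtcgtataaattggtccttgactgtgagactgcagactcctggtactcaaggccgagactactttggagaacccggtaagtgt
Ifit1, an antiviral protein induced by type I interferon, is at chr19:34640639-34640938 (plus strand). Its capitals mark paired GAAA copies with 2 bases between them, as in interferon-stimulated response elements, read here on the opposite strand, 104 and 85 bases before the start.
Ifit1: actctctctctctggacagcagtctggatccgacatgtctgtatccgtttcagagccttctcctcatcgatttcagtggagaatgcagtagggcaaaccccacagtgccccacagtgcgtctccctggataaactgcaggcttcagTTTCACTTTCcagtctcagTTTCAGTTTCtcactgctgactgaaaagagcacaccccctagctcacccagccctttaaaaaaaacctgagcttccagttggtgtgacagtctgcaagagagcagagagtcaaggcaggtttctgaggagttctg
The TATA box letters, searched on the gene's strand, were in 11 of the 17 hair keratin genes that have a window and in 9.77% of all 27025 genes. They were also in 8 of 8 small proline-rich protein genes, and those in the Sprr2d window are not capitalized. TGANTCA, whose reverse complement is the same motif, was in 7 of 8 small proline-rich protein genes and in 8.97% of all genes. It was also in 7 of 26 type I interferon-induced genes and in 1 of 17 hair keratin genes. The Sprr2 genes are close copies of each other, so the matches among the small proline-rich protein genes need not be independent. The paired GAAA, searched on both strands, were in 13 of 26 type I interferon-induced genes and in 3.99% of all genes. A match describes the letters and does not show that a factor binds there.

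Among the hair keratins and related genes, 17 of 24 were called higher, none was called lower and the median difference was 3.47. Krt25 read 3.72, 4.15 and 3.65 on the day 0 arrays and 11.40, 12.80 and 12.72 on the day 6 arrays. The groups were far apart and did not overlap, with a difference of 8.47 (354-fold, SE 0.46, limma adjusted p = 1.3e-11), and the day 1 arrays read 12.42, 9.91 and 12.16. The other inner root sheath keratins Krt73, Krt27, Krt71 and Krt28 differed by 7.09, 6.37, 5.92 and 5.82. Among keratins of the hair shaft, Krt35 went from 3.86, 4.11 and 4.22 to 10.01, 11.31 and 11.24, a difference of 6.79 (SE 0.55, limma adjusted p = 2.8e-08). Krt33a rose by 4.92, Krt85 by 4.83 and Krt31 by 3.36, and S100a3, a calcium-binding protein of the hair cuticle, rose by 5.88. In each of these genes the lowest of the day 6 arrays was replicate 1. Of the 7 members that did not pass, 3 were Krt86 (2.31), Krt34 (2.31) and Krt36 (0.44).

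Keratin-associated proteins, which fill the hair shaft late in its formation, were called higher in 5 of 23 genes, with a median of 1.22. Krtap11-1 read 7.33, 8.85 and 9.66 at day 6 and 3.73 to 4.17 at day 0 (difference 4.72, SE 0.85, limma adjusted p = 0.00037), and Krtap8-1 rose by 4.31. Krtap17-1, Krtap3-3 and Krtap13-1 rose by 2.93, 2.71 and 2.45, and the count was 3 when WT day 0 replicate 1, WT day 6 replicate 2 or WT day 6 replicate 3 was left out. The median of the list at day 1 was 0.18 above day 0, against 1.78 for the hair keratins. The average level of the list at day 6 ran from 4.90 to 6.27 in WT mice and more widely, from 4.76 to 10.12, in D6-deficient ones.

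Of 49 genes of hair cycle signalling, 7 were called higher and none lower. Sonic hedgehog (Shh), a signal from the matrix of the growing follicle, was 5.08, 4.80 and 5.71 at day 0 and 8.25, 9.86 and 9.38 at day 6. The difference was 3.97 (15.6-fold, SE 0.47, limma adjusted p = 5.2e-06), but the second tested probe set of Shh gave 1.11 and was not called. The hedgehog targets Gli1 and Hhip rose by 2.18 and 1.98, and the follicle transcription factors Msx2, Hoxc13, Dlx3 and Lhx2, the last also known from follicle stem cells, by 3.30, 2.78, 2.21 and 1.84. For Dlx3 the second probe set gave 0.99 and was not called. Lef1, a transcription factor of the Wnt pathway, was 1.56 higher at an adjusted p under 0.05, short of 3-fold. The stem cell markers Cd34 (-0.50) and Lgr5 (0.64) did not pass, and Fgf18, a growth factor of the resting follicle, was lower by 1.21. In all, 21 genes of this list were higher by the adjusted p, and 11 without WT day 6 replicate 2.

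Pigment genes of melanocytes moved with the hair genes, with 8 of 18 called higher and none lower. Tyrosinase (Tyr), the rate-limiting enzyme of melanin synthesis, read 3.96, 4.05 and 3.82 at day 0 and 7.21, 8.60 and 7.88 at day 6 (difference 3.95, SE 0.62, limma adjusted p = 8.8e-05), although its second probe set gave 1.13 and was not called. The melanosome genes Si (Pmel), Tyrp1, Dct and Mlana rose by 3.60, 3.53, 3.31 and 3.07. Among factors of the lineage, Mitf differed by -0.38 and Ednrb by -0.75, both lower at an adjusted p under 0.05 but not without WT day 0 replicate 3 or WT day 6 replicate 2, whereas Kit (0.17) and Sox10 (-0.21) did not pass. The average of the list was 6.19 to 6.38 at day 0, 6.86 to 7.79 at day 1 and 7.40 to 7.94 at day 6.

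**Figure D2:**
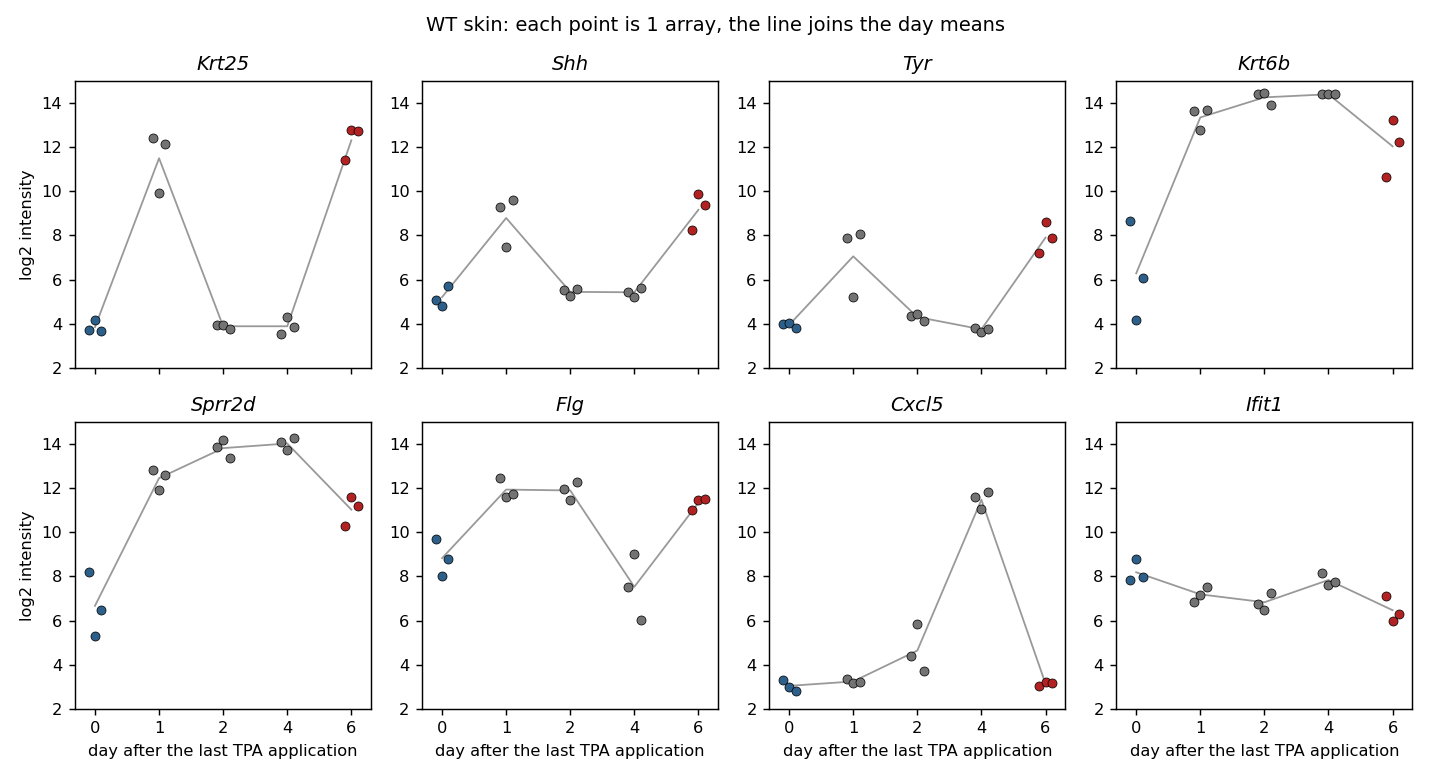
Log2 intensity (y axis) of 8 genes on every WT array by day after the last TPA application (x axis, days in order but not to scale), with day 0 in blue, day 6 in red and the other days in grey, and a line through the day means. Krt25, Shh and Tyr were high at days 1 and 6, Krt6b and Sprr2d stayed above day 0 at day 6 but below day 4, Flg was back above day 0, and Cxcl5, which averaged 11.48 at day 4, read 3.04 to 3.22 at day 6.

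Genes of the activated epidermis rose as well, and the medians of the stress keratins and small proline-rich proteins lay above day 0 at every day after TPA. All 4 stress keratins, which keratinocytes make in wounds and hyperplasia, were called higher, with medians of 4.81, 5.98, 6.12 and 3.47 above day 0 at days 1, 2, 4 and 6. Krt6b read 8.65, 4.15 and 6.05 at day 0, a wide spread, and 10.65, 13.25 and 12.23 at day 6. The groups did not overlap, and the difference was 5.76 (SE 0.79, limma adjusted p = 2.4e-05). Krt16 went from 6.85, 5.43 and 6.06 to 9.14, 11.92 and 10.83 (difference 4.51, SE 0.54, limma adjusted p = 5.6e-06). Krt6a rose by 2.43 and Krt17 by 1.62, the latter just over 3-fold on 1 of its 2 probe sets, a call that was lost when WT day 0 replicate 3, WT day 6 replicate 2 or WT day 6 replicate 3 was left out. Krt6a and Krt6b are near-identical in sequence, so that their probes may share signal.

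The small proline-rich proteins, cross-linked precursors of the cornified envelope, were called higher in 6 of 9 genes (median 3.14). Sprr1b was 6.33, 4.51 and 5.51 at day 0 and 9.34, 12.19 and 11.49 at day 6, a difference of 5.56 (47.0-fold, SE 0.54, limma adjusted p = 4.8e-07). Sprr2d went from 8.19, 5.32 and 6.49 to 10.30, 11.59 and 11.19 (difference 4.36, SE 0.53, limma adjusted p = 7.6e-06), and Sprr2h, Sprr2f, Sprr2i and Sprr1a rose by 4.09, 3.49, 3.14 and 2.81. The Sprr2 genes are close copies of each other, as are the Lce3 genes, so that single members are uncertain. Sprr3, at 0.10, did not pass. Among 15 late cornified envelope genes 4 were called higher, led by Lce3f (4.76), Lce3a (3.66) and Lce3c (2.57), members of the Lce3 group that is known from wounded and psoriatic skin. The Lce1 genes, which belong to resting epidermis, differed less, with Lce1g the highest of them at 1.79, a call that was lost without WT day 0 replicate 2.

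Genes of late differentiation and the barrier were called higher in 8 of 30. Filaggrin (Flg), which bundles keratin and is broken down to moisturising factors, read 9.69, 8.03 and 8.79 at day 0 and 11.01, 11.49 and 11.51 at day 6, without overlap (difference 2.50, SE 0.51, limma adjusted p = 0.0011). The protease Klk6 rose by 3.52, Casp14, the caspase of cornification, by 2.98 and repetin (Rptn) by 2.50. A second probe set of Casp14 gave 0.20 and was not called. Involucrin (Ivl, 0.88) and loricrin (Lor, 0.32) did not pass. Of 10 keratins of basal and suprabasal epidermis none was called, with Krt1 1.56 and Krt14 0.62 higher, Krt5 0.39 higher and Krt15, a keratin of basal and follicle bulge cells, 1.07 lower, all 4 at an adjusted p under 0.05, and none of these passed without WT day 6 replicate 2.

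Members of further lists of epidermal genes were called higher at day 6, and their cell source within the skin was not tested. Of 3 tested cysteine protease inhibitors of the stefin A cluster 2 were called, Stfa3 and Stfa2l1, which rose by 4.76 and 4.70. Of 16 clade B serpins 2 were called, Serpinb3a and Serpinb12, which rose by 3.39 and 3.24. By the adjusted p 4 serpins were higher and 2 lower, and the median of that list was 0.0. A second probe set of Serpinb12, at 1.53, was not called. Among 19 antimicrobial proteins 5 were called higher, namely beta-defensin 3 (Defb3, 3.14), Chi3l1 (now Chil1, 3.12), Wfdc12 (2.22) and the neutrophil and keratinocyte proteins S100a8 (3.00) and S100a9 (2.75). S100a8 read 11.15, 7.74 and 8.23 at day 0 and 11.79, 12.20 and 12.13 at day 6. The highest day 0 array lay close to the day 6 group. The gene 2610528A11Rik, in no list, rose by 5.05, from 3.19 to 3.89 at day 0 to 7.97 to 8.92 at day 6. Day 0 replicate 1 was the highest of the day 0 arrays in Krt6b, Sprr1b, Sprr2d, Lce3f, Stfa3 and S100a8.

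**Figure D3:**
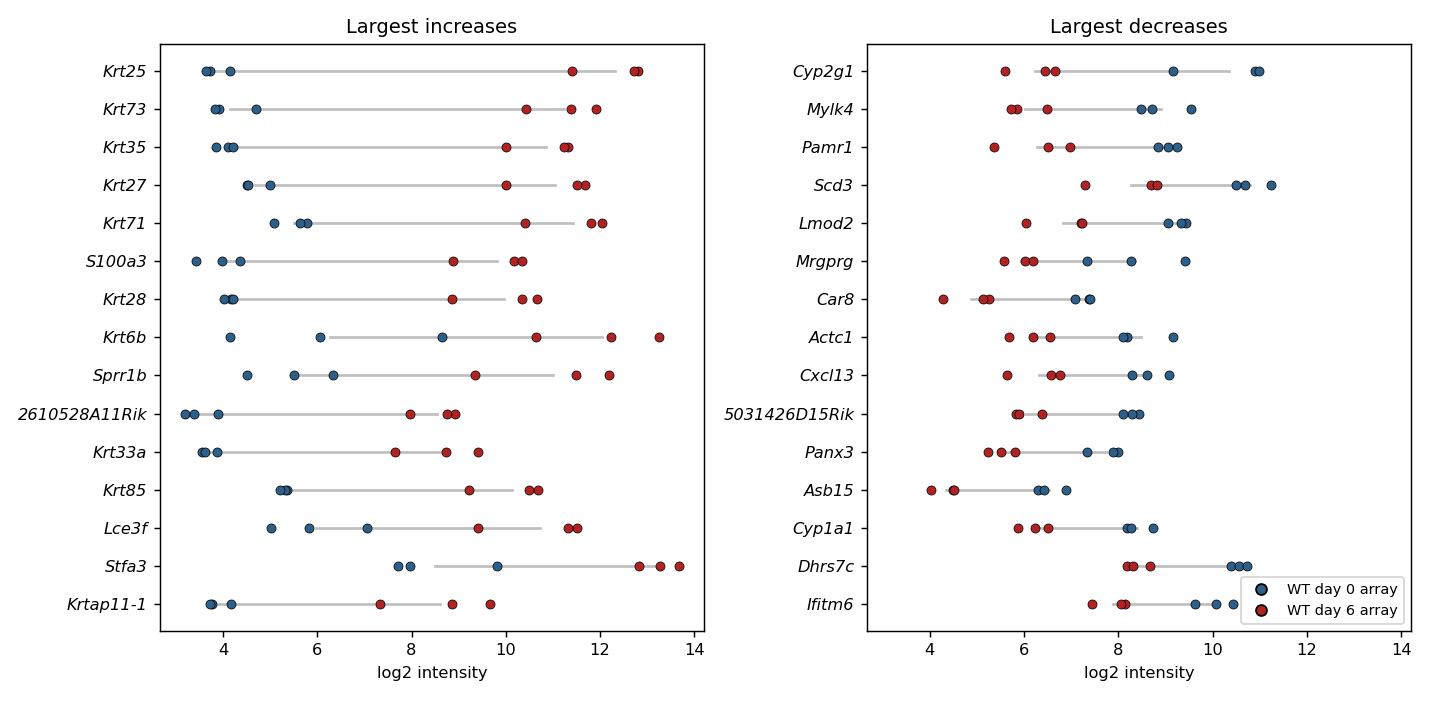
Log2 intensity (x axis) on the 3 WT day 0 arrays (blue) and the 3 WT day 6 arrays (red) of the 15 genes with the largest increases (left) and the 15 with the largest decreases (right) among called genes whose groups did not overlap, with a grey line between the group means. The increases ran from 4.72 (Krtap11-1) to 8.47 (Krt25) and the decreases from -2.16 (Ifitm6) to -4.11 (Cyp2g1).

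Cell cycle and DNA replication genes were higher almost throughout, with 52 of 54 higher at an adjusted p under 0.05 and 32 called. The median difference was 1.69, and at days 1, 2 and 4 it was 1.57, 1.49 and 1.11. Cdk1, the kinase of mitotic entry, read 6.94, 6.83 and 6.91 at day 0 and 8.81, 9.75 and 8.97 at day 6 (difference 2.28, SE 0.31, limma adjusted p = 2.3e-05). Bub1, of the spindle checkpoint, rose by 2.53 and Uhrf1, of DNA methylation upkeep, by 2.37. The average of the list was 6.84 to 7.10 at day 0 and 8.22 to 8.97 at day 6, with replicate 2 the highest, and without this array 22 genes were called. Dividing keratinocytes of the epidermis and of the hair matrix both express these genes, and their shares were not tested.

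The mediators of inflammation differed by group. None of the 7 genes of neutrophil-attracting CXC chemokines and their receptor passed, with a median of 0.10 at day 6 and of 5.08 at day 4. Cxcl5 read 3.31, 3.00 and 2.80 at day 0 and 3.04, 3.22 and 3.16 at day 6, with overlapping groups (difference 0.10, SE 0.36, limma adjusted p = 0.88). Among 14 inflammatory CC chemokines, a class that holds most ligands of D6, 6 were higher by the adjusted p and 2 were called. Ccl12, a monocyte attractant, went from 7.83, 7.89 and 7.05 to 10.29, 10.23 and 8.67 (difference 2.14, SE 0.41, limma adjusted p = 0.00063), and Ccl17, an attractant of CCR4-bearing T cells, from 5.76, 5.52 and 5.93 to 8.06, 7.64 and 7.91 (difference 2.13, SE 0.41, limma adjusted p = 0.00070). Ccl7 (1.33) and Ccl2 (0.94) were higher at an adjusted p under 0.05, and in Ccl12, Ccl7 and Ccl2 replicate 3 was the lowest of the day 6 arrays.

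Of 15 IL-1 family genes 7 were higher and 1 lower by the adjusted p, and the 3 IL-36 cytokines were called higher, Il1f6 by 3.03, Il1f8 by 2.55 and Il1f9 by 1.91. Il1f6 (IL-36α) read 8.43, 6.32 and 7.95 at day 0 and 10.26, 10.87 and 10.66 at day 6. Il1b did not pass (0.74, limma adjusted p = 0.10), Il1a was 0.90 higher and the decoy receptor Il1r2 was 0.70 lower, both at an adjusted p under 0.05, which for Il1r2 was lost without WT day 0 replicate 1 or 3 or WT day 6 replicate 2 or 3. Of 26 other cytokines none was called higher, with Il6 1.28 and Tnf 0.39 higher at an adjusted p under 0.05 and short of 3-fold. By the adjusted p 5 genes of this list were higher, and only 1 was without WT day 0 replicate 2. Tslp, an epithelial cytokine, was the 1 gene of that list called lower, at 7.30, 8.32 and 7.49 on day 0 and 6.14, 5.90 and 6.12 on day 6 (difference -1.65, SE 0.30, limma adjusted p = 0.00044), a call that was lost without WT day 0 replicate 2 or WT day 6 replicate 2. Cxcl13, an attractant of B cells, also fell, from 9.08, 8.29 and 8.60 to 6.57, 6.76 and 5.63 (difference -2.34, SE 0.40, limma adjusted p = 0.00022), and its second probe set, at -1.08, was not called. Of 11 genes of the polyamine route 1 was called, Arg2, which rose by 2.92 beside a list median of 0.22. Of 19 genes of the eicosanoid route 1 was called, Alox15, which rose by 2.20 beside a list median of 0.12.

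Interferon-induced genes were not raised at day 6. Of 39 type I interferon-induced genes none was higher at an adjusted p under 0.05, 18 were lower and 2 were called lower, with a median of -0.44. Ifit1 read 7.82, 8.77 and 7.99 at day 0 and 7.13, 5.98 and 6.29 at day 6, close to each other but without overlap (difference -1.73, SE 0.36, limma adjusted p = 0.0013). Ifi44, at 7.87, 8.62 and 6.93 and then 6.33, 6.07 and 5.68, fell by 1.78, and Rsad2 and Oas2 differed by -1.54 and -1.45. WT day 0 replicate 2 was the highest array in all 4 of these genes, and without it 8 genes of the list were lower and none was called. The call of Ifit1 was also lost without WT day 6 replicate 2 and that of Ifi44 without WT day 6 replicate 3, which left 11 lower genes in the list. Irf7, the factor that amplifies the response, and Ifit2 were each lower by 0.84. Among 26 genes induced by interferon-gamma none passed, and Cxcl9 stood at 0.68 (limma adjusted p = 0.25), with its second probe set at -0.09.

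Few markers of immune cells were called, and the list with the most genes higher by the adjusted p was that of T cells and NK cells. Of 18 neutrophil markers 1 passed, Asprv1, which is better known as a protease of the epidermis, and the defining markers Csf3r (0.20) and Ngp (1.42) did not. Of 38 T cell and NK cell markers, 17 were higher at an adjusted p under 0.05, 1 was lower and 2 were called, with a median of 0.54. Icos, a costimulatory receptor, went from 6.54, 6.65 and 7.21 to 8.90, 8.45 and 8.36 (difference 1.77, SE 0.19, limma adjusted p = 2.1e-06), with 2 of its 3 probe sets called, and Lck, a kinase of the T cell receptor, rose by 1.52, short of a call. Cd5 rose by 1.66, a call lost without WT day 0 replicate 3 or WT day 6 replicate 1. The defining genes Cd3e (0.18) and Cd3g (0.53) did not pass, whereas Cd3d was 1.28 higher. When WT day 0 replicate 1 or WT day 6 replicate 1 was left out, 11 genes of the list were higher.

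Among 35 macrophage and monocyte markers the adjusted p was under 0.05 for 3 that were higher and 9 that were lower. Csf1r, the receptor of the lineage, was 0.65 lower and the scavenger receptors Stab1 and Cd163 of resident macrophages were 1.07 and 0.95 lower, whereas Cd68 (0.05) did not pass. Mmp12, an elastase of macrophages, rose by 1.68, a call lost without WT day 0 replicate 2, and Chi3l4 (now Chil4), a chitinase-like protein with near-identical copies, by 2.54, a call lost without any array other than WT day 6 replicate 1. The lower genes of the list were 3 without WT day 6 replicate 3, 4 without WT day 0 replicate 1, and 5 without replicate 2 of either day. No dendritic cell or Langerhans cell gene was called, and in that list Clec10a was 1.23 lower while Itgax and Ccr7 were 1.03 and 1.06 higher. Langerin (Cd207, 0.67), the mast cell proteases Cpa3 (0.12) and Mcpt4 (0.17) and the B cell gene Cd79a (0.15) did not pass. Mcpt8, a protease of basophils, read 7.13, 5.31 and 4.65 at day 6, and its call (difference 1.71) was lost without WT day 0 replicate 2 or WT day 6 replicate 1.

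**Figure D4:**
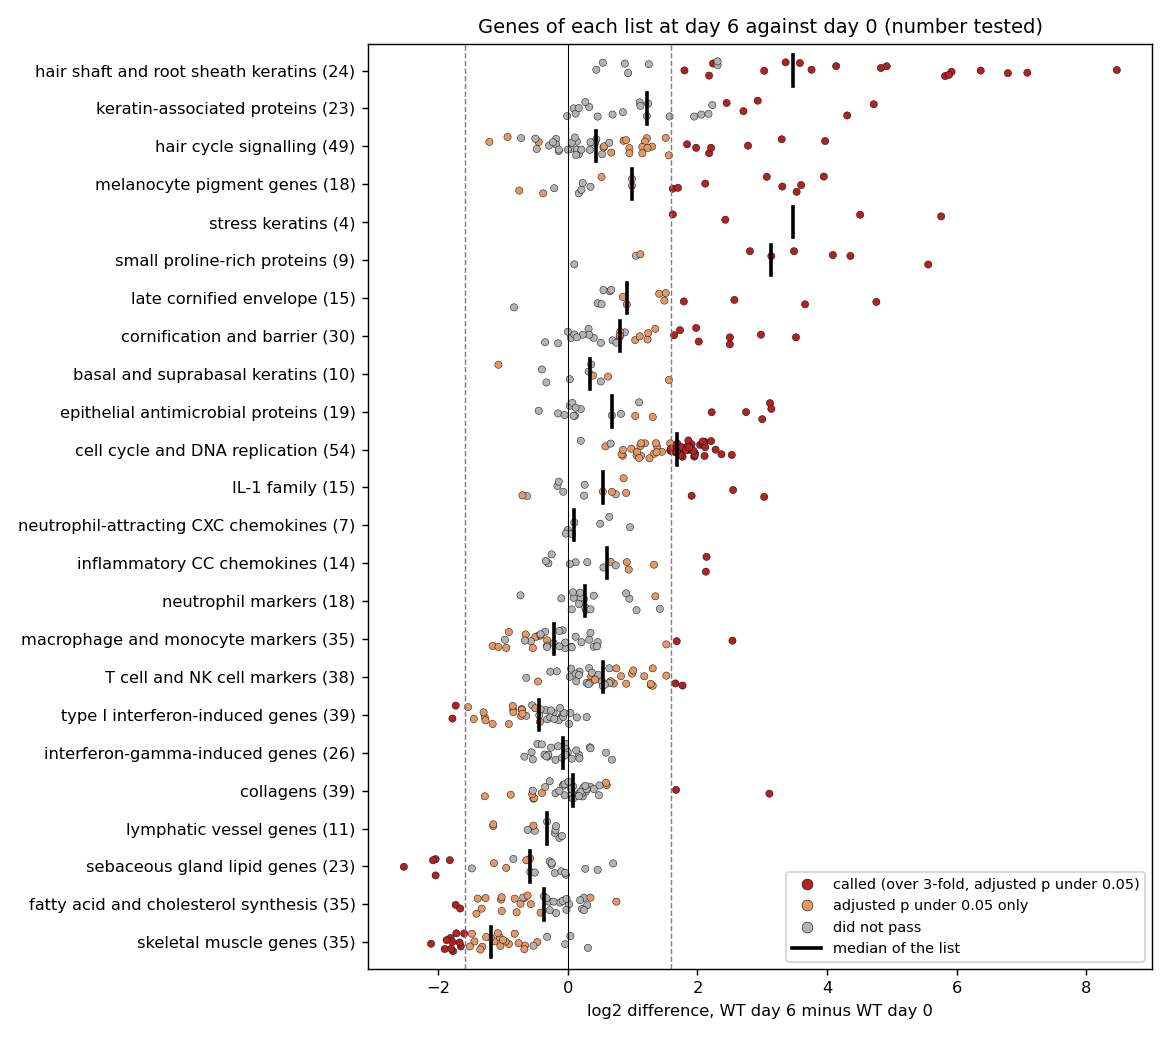
Log2 difference of WT day 6 from WT day 0 (x axis) for every tested gene of 24 lists (y axis, number tested in parentheses). Each point is 1 gene, red where called, orange where only the adjusted p was under 0.05 and grey where neither held, with black bars at the medians and dashed lines at 3-fold. Hair keratins (median 3.47) and small proline-rich proteins (3.14) lie to the right, skeletal muscle genes (-1.19) to the left.

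The largest fall was that of Cyp2g1, a cytochrome P450, which read 10.90, 9.15 and 10.98 at day 0 and 5.60, 6.65 and 6.45 at day 6 (difference -4.11, SE 0.55, limma adjusted p = 2.0e-05). Cyp1a1, a target of the aryl hydrocarbon receptor, fell by 2.19, and Ifitm6 by 2.16. Skeletal muscle genes, from the thin muscle sheet under the skin, made up the largest group of falls. Of 35 muscle genes 11 were called lower and 30 were lower at an adjusted p under 0.05, with a median of -1.19 at day 6 and of -1.23, -1.20 and -0.91 at days 1, 2 and 4. Myh4, the fast myosin heavy chain, read 13.48, 13.09 and 13.55 at day 0 and 10.22, 11.35 and 12.23 at day 6 (difference -2.11, SE 0.43, limma adjusted p = 0.0012). Actn3 and Pygm fell by 1.90 and 1.87, and the muscle genes Lmod2, Actc1, Asb15 and Dhrs7c outside this list fell by 2.45, 2.35, 2.19 and 2.17. The very abundant Acta1 was lower by 0.47, and the genes of slow fibres, Tnnt1 (-0.04), Tnni1 (0.31) and Myh7 (0.04), did not pass. Without WT day 6 replicate 2, which had the lowest muscle average, 6 muscle genes were called.

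Lipid genes of the sebaceous gland were called lower in 5 of 23. Scd3, a stearoyl-CoA desaturase, read 10.69, 11.23 and 10.49 at day 0 and 8.69, 7.29 and 8.81 at day 6 (difference -2.53, SE 0.58, limma adjusted p = 0.0030). The lipase Pnpla5 fell by 2.08, Fa2h, of hydroxylated lipids, by 2.04, and Cidea by 1.82. Far2, of wax synthesis, also fell by 2.04, a call that was lost in the fits that left out any of the day 0 arrays, WT day 6 replicate 1 or WT day 6 replicate 2. Scd1 (-0.20) did not pass, and the average of the list was 10.28 to 10.43 at day 0 and 9.57 to 9.67 at day 6. Of 35 genes of fatty acid and cholesterol synthesis 16 were lower at an adjusted p under 0.05, led by Acacb (-1.73) and Elovl6 (-1.66), each with a further probe set that was not called (0.18 and -0.38). Both calls were lost without WT day 6 replicate 2, and that of Elovl6 also without WT day 0 replicate 3.

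Few genes in the lists of the dermis and its vessels were called, and none of them was called lower. Of 29 matrix metalloproteinases and inhibitors 2 were called higher, and by the adjusted p 6 were higher and 5 lower. Of 39 genes with the symbol prefix of collagens, among them Col4a3bp, which is not a collagen, 2 were called higher. Col11a1 rose from 3.96, 5.02 and 3.77 to 6.45, 7.79 and 7.84 (difference 3.11, SE 0.58, limma adjusted p = 0.00054) and was also high at day 1, with a mean of 6.51, but not at days 2 and 4, with means of 3.80 and 3.44. Col12a1, a collagen of fibril surfaces, rose by 1.67, a call lost without WT day 0 replicate 3 or WT day 6 replicate 2, and its second probe set, at 1.16, was not called. The fibroblast genes Col3a1 (0.08), Dcn (-0.18) and Lum (0.18) did not pass, and tenascin C (Tnc) rose by 2.32 on 1 of its 2 probe sets. Of 25 endothelial genes 4 were lower, 2 of them without WT day 0 replicate 3, and none was called, with Tek 0.95 lower. Among 11 lymphatic genes 3 were lower, and the defining markers Lyve1 (-0.13) and Prox1 (-0.20) did not pass.

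The D6 gene itself (Ccbp2), which lymphatic endothelium expresses, has 3 tested probe sets. The brightest read 8.10, 8.04 and 8.54 at day 0 and 7.59, 6.73 and 6.91 at day 6 (difference -1.15, SE 0.25, limma adjusted p = 0.0016), a fall of 2.23-fold and so not a call. The genotypes overlapped on this probe set, at 6.69 to 8.54 in WT and 6.59 to 8.09 in D6-deficient mice. The probe set that separates the genotypes, at 4.15 to 5.76 in WT and 3.30 to 3.86 in D6-deficient arrays, differed by -0.71 (SE 0.25, limma adjusted p = 0.039), and the third by -0.53 (limma adjusted p = 0.082).

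From day 4 to day 6, 1.41% of genes were called higher and 1.55% lower. The lower genes included 6 of 7 of the neutrophil-attracting chemokine group, 9 of 18 neutrophil markers, 12 of 19 antimicrobial proteins and 7 of 9 small proline-rich proteins. Cxcl5 averaged 11.48 at day 4 and 3.14 at day 6, a fall of 8.34 (SE 0.36, limma adjusted p = 2.6e-13). Il6 fell by 5.04, the acute-phase genes Saa1 and Saa3 by 6.14 and 5.77, Lcn2, a siderophore-binding protein, by 6.04 and the collagenase Mmp13 by 5.65. Cxcl13, which lay below day 0 at day 6, had averaged 11.37 at day 4. The stress keratin Krt6b, at 14.40 on average at day 4, fell by 2.36 and was called.

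The higher genes of the same step included 16 of 24 hair keratins and 5 of 10 keratins of basal and suprabasal epidermis. The genes of the cornified layer went both ways, with 2 of 30 cornification and barrier genes called higher and 4 lower, and with 1 higher and 4 lower both among the 15 late cornified envelope genes and among the 16 clade B serpins. Krt10, the main suprabasal keratin, read 8.80, 11.07 and 8.21 at day 4 and 13.89, 13.91 and 14.04 at day 6, a level close to the 13.59 to 13.66 of day 0 (difference from day 4 of 4.58, limma adjusted p = 2.6e-08). Krt1 rose by 4.08, Flg by 3.81, Lor by 2.68 and Serpinb12 by 4.90. The epithelial metallothionein Mt4 rose by 6.13, in a list of 26 antioxidant and metallothionein genes with 2 called higher and 5 lower. Adiponectin (Adipoq), a marker of fat cells, was 1.20 higher than at day 4 and 0.09 below day 0.

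The change from day 0 to day 6 was set against that in D6-deficient mice, whose comparison has its own day 0 arrays. 1 gene was called, 0.00563% of those tested, and it was C130079G13Rik, with 1671 genes at an unadjusted p under 0.05. It differed little in WT mice, at 5.57, 5.14 and 5.33 on day 0 and 4.95, 5.08 and 5.27 on day 6, and in D6-deficient mice went from 7.16 to 7.42 at day 0 to 4.63 to 5.36 at day 6. For Krt25 the 2 changes differed by 0.29 (SE 0.65, limma adjusted p = 0.96), for Sprr2d by -2.23 (SE 0.75, limma adjusted p = 0.42) and for Tslp by 1.99 (SE 0.43, limma adjusted p = 0.13). None of these 3 passed, and the standard errors leave room for differences of several fold.

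The hybridization controls placed the 30 arrays in sets of 13 and 17, with WT day 6 replicate 1 and WT day 0 replicate 3 in the smaller set and the other 4 arrays compared in the larger. These are the arrays that gave the calls, so that the direction within a set is largely fixed by the call, and only the sizes are given. Of the 323 called genes 171 differed by more than 3-fold within both sets. Within the smaller set, 1 array against 1, Krt25 differed by 7.75, Sprr2d by 3.81, Flg by 2.22, Ifit1 by -0.86 and Myh4 by -3.33. Within the larger set, 2 arrays against 2, the same genes differed by 8.83, 4.64, 2.64, -2.16 and -1.50.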

How the data were processed

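RNA of whole back skin was hybridized to Affymetrix mouse genome arrays, 1 mouse per array and 3 per group. The authors background-corrected, quantile-normalized and summarized the probes by RMA in GeneSpring GX and deposited linear intensities, which were turned to log2 here and not scaled again. The other deposited text, a sheet of sample names with no measurements, was not used. RMA equalizes the distribution of probe values between arrays before they are summarized, and the medians of the summarized values still differed slightly. It tends to compress differences among dim probe sets. After removal of 64 controls and, following the study's methods, of the dimmest 20% by mean level, 36029 of 45037 probe sets were tested.

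limma 3.58.1 (lmFit and eBayes, R 4.3.3) modelled the 30 arrays together, with a mean for each genotype and day, and p values were adjusted by Benjamini-Hochberg over the tested probe sets of each comparison. Called means an adjusted p under 0.05 and more than 3-fold. A gene is represented by its tested probe set with 1 gene symbol and the highest mean over all arrays (17772 genes), and named genes whose other probe sets differ in call or direction are said to do so, where these are described. Symbols are those of the deposited table, with current names and promoters from RefSeq. The genes named are the 15 largest increases and decreases at day 6 without overlap, up to 4 genes of each of 45 gene lists, the 8 largest changes each way from day 4, markers of cell types and genes that the study names, and other list members are named with their values after these were seen. The members and lists were chosen with earlier results of these data known. The number of arrays limits the precision, and an exact permutation test of 3 against 3 cannot go below p = 0.1. Simulated arrays in which 200 probe sets differed gave a recovery of 95% for a log2 change of 2 and of 100% for 3, with 0 false calls. Their noise was drawn as normal, independent between probe sets and equally wide in every group. They therefore check the fit and do not give the rate of false calls in the real arrays. Alternatives covered the filter, scaling, threshold, test, covariates, arrays fitted and each array left out. Python 3.11.15 and matplotlib 3.10.9 drew the figures.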

Additional observations from a re-analysis of the deposited data

Results flagged for a closer look

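The change from day 0 to day 6 differed between the genotypes for C130079G13Rik, at -1.95 in D6-deficient minus WT mice (log2, SE 0.29, limma adjusted p = 0.0084). Its day 0 arrays read 7.16 to 7.42 in D6-deficient mice and 5.14 to 5.57 in WT mice, and at day 6 it read 4.63 to 5.36 and 4.95 to 5.27.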

How the results depend on the processing

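Without a fold threshold 4236 genes passed at day 6 against day 0, 4616 against day 4 and 4 in the comparison of genotypes, and with a 2-fold threshold 970, 1238 and 2. The methods' t-test with Benjamini-Hochberg adjustment called 0 genes against day 0, where 6368 had an unadjusted limma p under 0.05, 293 against day 4 and 0 between the genotypes. Unadjusted at the methods' threshold it called 326, 526 and 28. Between the genotypes, 0 genes were called on the arrays compared alone, 4 with array weights and 2 with the probe sets of a gene averaged. Without 1 array the counts ran from 229 to 392 against day 0, from 459 to 633 against day 4 and from 0 to 6 between the genotypes, the first being lowest without WT day 6 replicate 2. The other alternatives, including no filter, the lowest 40% left out, median centring, renormalization, the hybridization set as a covariate, only WT arrays and no day 1 arrays (the last 2 chosen after seeing the data), moved the first 2 counts by less than 1.5 times. Averaging the probe sets of a gene gave 270 and 472. No named gene reversed. Of 96 called genes among the 237 that fall under the rule, all lost the call by the adjusted t-test, and 77 kept it in every fit without 1 array.

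With the replicate block the counts were 322, 526 and 1. Deviations of arrays with the same number correlated at -0.29, 0.14 and -0.19 between day 6 and day 0. Those of arrays with different numbers ran from -0.209 to 0.375. So few correlations do not show whether samples with the same number share more than that number. RMA values and 3 mice per group limit what is visible among dim genes, and a gene that did not pass is not shown to be unchanged. Hair growth stage, day and mouse batch were not separated by the design.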

Other observations

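In WT skin at day 6, of 19 circadian clock genes none was called, while 3 that were higher and 5 that were lower had an adjusted p under 0.05 (2 lower without WT day 0 replicate 3), with a median of -0.25. Of 18 genes of glycolysis and glucose transport none was called, while by the adjusted p 1 was higher and 8 were lower (5 without WT day 0 replicate 3), led by the muscle-type enzyme Pfkm at -1.41 and Ldhb at -1.28. Of 17 AP-1 and immediate early factors none was called, and Fos, at 11.46, 9.54 and 10.54 on day 0 and 9.22, 9.51 and 8.65 on day 6, was 1.39 lower (SE 0.44, limma adjusted p = 0.025, no longer passing without WT day 0 replicate 1 or 3 or WT day 6 replicate 3). Of 19 feedback inhibitors none was called, with Dusp1, a phosphatase of MAP kinases, lower by 1.13 and Socs1 higher by 0.86.

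Nnat, an imprinted gene that was listed among the fat cell genes, read 9.30, 6.11 and 6.67 at day 0 and 10.43, 8.53 and 11.43 at day 6, so that its groups overlapped although it was called (difference 2.77, SE 0.91, limma adjusted p = 0.031). The call was lost without WT day 0 replicate 2 or 3 or WT day 6 replicate 1 or 3. At day 4 it averaged 4.26.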
